A study of Mus musculus with 6 samples.

Results

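The genes described here are named for subunits of the mitochondrial respiratory chain and of ATP synthase. They were chosen by a rule on names, with earlier results of these data known. Protein-coding rows of the count table were taken if their symbol began with Ndufa, Ndufb, Ndufc, Ndufs or Ndufv and a digit. Protein-coding rows with a symbol that began with Uqcr, Cox4 to Cox8 or Atp5 were also taken. The rest were Sdha, Sdhb, Sdhc, Sdhd, Cyc1 and the subunit genes of the mitochondrial chromosome (mt-). The rule found 99 of 55487 rows, 86 in the nucleus and 13 on the mitochondrial chromosome. Enough counts for a test were found for 90 of them, 78 nuclear and 12 mitochondrial.

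The samples were mouse macrophages grown from bone marrow cells of 2 sorted kinds, called TpMos and mature Ly6Chi monocytes in the labels. Both kinds were kept for 7 days in the same medium with CSF-1, the growth factor of macrophages, so both groups carry that treatment, and no genotype, strain, sex or age is given. The protocol refers to CSF-1 concentrations without stating one per sample, so a difference in dose and the cell of origin cannot be told apart. There were 3 libraries of TpMo-derived and 3 of Ly6Chi-derived macrophages, made by SMART-seq v2, a full-length method for small RNA amounts, from 2 ng of total RNA. Nothing says that the libraries of a group came from separate animals or cultures, so p-values refer to the spread among these libraries, which may be technical.

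Electrons from NADH enter the chain at complex I and those from succinate at complex II. Ubiquinone carries them to complex III, cytochrome c carries them on to complex IV, and complexes I, III and IV pump protons that drive ATP synthase, also called complex V. Complex II is wholly nuclear, whereas the others mix nuclear subunits, made in the cytosol and imported, with subunits that the mitochondrion transcribes and translates from its own chromosome. Macrophages are known to shift between oxidative and glycolytic metabolism with their activation state.

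Library totals lay between 23765773 and 33042094 counts, so that 3 counts, the limit set by a count of 0, corresponded to 0.0908 to 0.126 CPM (counts scaled to a common library total). Only counting error enters that limit, and reads that carry no molecular identifier can be copies of 1 molecule. Gene levels below are CPM scaled with TMM factors, listed for TpMo-derived replicates 1 to 3 and then Ly6Chi-derived replicates 1 to 3, and fold changes are TpMo-derived over Ly6Chi-derived. In the edgeR test over 13140 genes, 12.3% were called at an adjusted p under 0.05, 6.54% higher and 5.79% lower, and the median log2 fold change was 0.01. All 7 macrophage markers (such as Csf1r, Adgre1 and Mertk) were tested, with a summed level of 34676 to 37204 CPM in the TpMo-derived libraries and 28547 to 31557 CPM in the others; 3 were higher and 1 lower. The summed markers of 7 other cell types (neutrophils with 8 genes, B cells, NK cells, erythroid, stromal and mast cells or basophils with 4 each, and dendritic cells with 5) reached at most 2.45 CPM in any library, a value from the neutrophil list in a TpMo-derived library, where Ltf had 2.15 CPM. Of the 5 T cell markers, 4 (Cd3d, Cd3e, Cd8a and Trac) were at 0 in every library and Cd4 rose (2.82 to 9.58 against 0 to 0.311 CPM). The 4 megakaryocyte markers differed in direction: Pf4 rose (117 to 246 against 30.0 to 44.5 CPM), Gp1ba had 0 to 0.0868 against 0.476 to 0.528 CPM and did not pass (edgeR adjusted p 0.110), Itga2b reached 0.732 CPM in 1 Ly6Chi-derived library, and Gp9 was at 0 in all. Their part in the results below was not tested.

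How far a mitochondrial gene can be measured here depends in part on its sequence. Old copies of mitochondrial DNA lie in the nuclear genome, and reads that map to several places were not counted. Each gene's transcript was therefore split into words of 51 bases, the read length, and the words were looked up in all annotated transcripts from other loci. For mt-Co2, the electron-accepting subunit of complex IV, 100% of the words were shared, almost all with the pseudogene Gm28661 on chromosome 1. The first 90 bases of both, from the GENCODE M21 transcripts, show this identity, which extended over all 681 bases compared.
mt-Co2: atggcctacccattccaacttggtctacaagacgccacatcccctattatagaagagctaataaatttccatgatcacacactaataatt
Gm28661: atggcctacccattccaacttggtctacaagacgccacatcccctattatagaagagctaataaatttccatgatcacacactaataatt

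A copy can also be distinguishable in part. Gm13340 on chromosome 2 is a full-length copy of mt-Co1, the catalytic subunit of complex IV, and differed from it at 37 of 1545 bases. The first 90 bases hold 3 of these differences, which are in capitals.
mt-Co1: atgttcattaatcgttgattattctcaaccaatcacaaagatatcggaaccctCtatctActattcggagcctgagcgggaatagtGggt
Gm13340: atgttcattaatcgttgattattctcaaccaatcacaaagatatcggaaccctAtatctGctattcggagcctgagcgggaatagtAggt

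The 13 mitochondrial genes fell into groups by this measure. No annotated copy shared a word with mt-Nd1, mt-Cytb, mt-Nd6 or mt-Atp8, 7.996% of the words of mt-Nd2 and 7.22% of those of mt-Nd5 were shared, and the share was 50.6% for mt-Co1 and 62.2% for mt-Nd4. For mt-Nd3, mt-Nd4l, mt-Co2, mt-Co3 and mt-Atp6 it was 98.0% to 100%. These last 5 genes held 36, 90, 191, 564 and 1494 counts over the 6 libraries together, against 562012 for mt-Nd1. The chromosome 1 copies themselves held few counts, for example 190 for Gm28661 and 1638 for Gm10925, the copy of mt-Atp6. The counts of these 5 genes are therefore only of reads that the aligner could place uniquely. mt-Nd6 and mt-Nd2, with 0% and 7.996% shared words, held 5771 and 11409 counts. The part of sharing in the levels of the 13 genes was not tested. mt-Atp8 also had only 79 counts with no annotated copy; sequence outside annotated transcripts was not examined, 21.1% of its exon overlaps mt-Atp6, and the part of either in its low count was not tested.

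**Figure D1:**
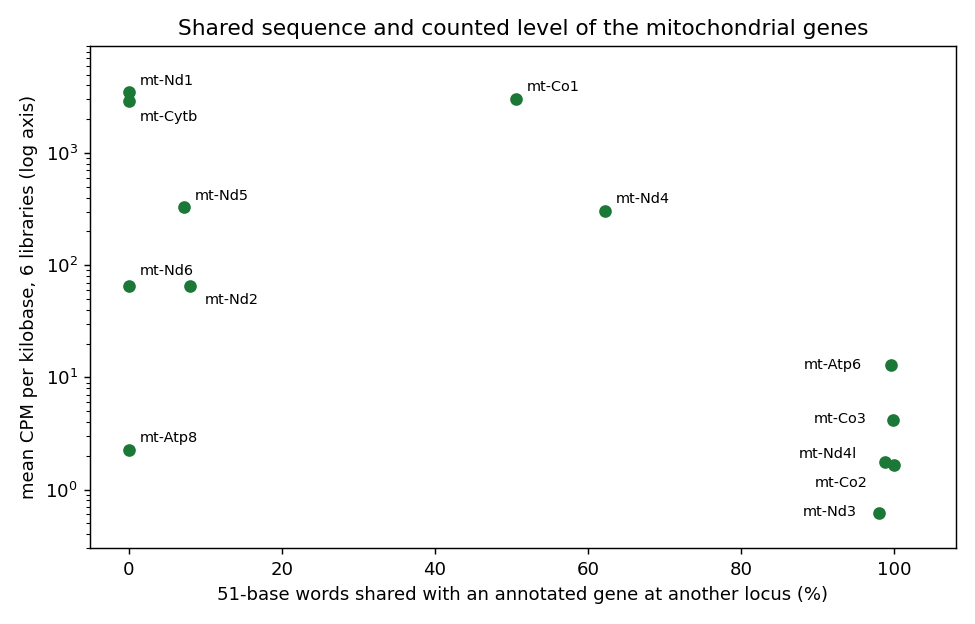
Share of each mitochondrial gene's 51-base words that an annotated gene at another locus also holds (x axis, %) against its mean level over the 6 libraries (y axis, CPM per kilobase of exon, log axis); each point is a gene. The 5 genes with at least 98.0% shared words lie at or below 12.9 CPM per kilobase. Of the genes with none, mt-Nd1 and mt-Cytb are among the highest, while mt-Nd6 lies at 65.8 and mt-Atp8 at 2.27 CPM per kilobase.

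Of the 12 mitochondrially encoded subunits tested, 2 rose in TpMo-derived macrophages in edgeR's test, mt-Nd1 and mt-Co1, and 0 fell; over all genes tested 6.54% were called higher and 5.79% lower. An unadjusted p under 0.05 was found for 5 of the 12 and for 24.4% of all genes tested. The log2 fold change was above 0 for 10 of 12 (6638 of all 13140 genes tested were above 0), with a median of 0.20. However, 5 of the 12 had too few counts for a precise value, and genes measured in the same 6 libraries are not separate observations. The 5 genes mt-Nd1, mt-Nd2, mt-Cytb, mt-Co1 and mt-Atp6 had every TpMo-derived library above every Ly6Chi-derived one, a separation in this direction that 15.3% of all genes tested showed. Each value is a share of the library's RNA, so more mitochondrial RNA per cell and more cells rich in it cannot be told apart.

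mt-Nd1 encodes a core membrane subunit of complex I next to the ubiquinone site (ENSMUSG00000064341.1, chrM:2751-3707, + strand, GRCm38, 1 exon). Its level was 3681, 3638 and 4017 CPM in the TpMo-derived and 2445, 3021 and 3160 CPM in the Ly6Chi-derived libraries. The groups did not overlap, and Ly6Chi-derived replicate 1 was the lowest library. The mean was 3779 ± 207 against 2875 ± 379 CPM (SD, n = 3 each), a log2 fold change of 0.39 ± 0.09 (SE) with an edgeR adjusted p of 0.0150. Without TpMo-derived replicate 3 the log2 fold change was 0.35 and the adjusted p 0.0775.

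mt-Co1 (ENSMUSG00000064351.1, chrM:5328-6872, + strand, 1 exon) had 5030, 5273 and 4997 CPM in TpMo-derived and 4250, 4639 and 4139 CPM in Ly6Chi-derived libraries. The ranges were again separate, with a smaller gap. The means were 5100 ± 151 and 4342 ± 262 CPM (SD, n = 3 each), the log2 fold change 0.23 ± 0.05 (SE) and the edgeR adjusted p 0.0168. Its call was lost without Ly6Chi-derived replicate 1 (adjusted p 0.0771), without Ly6Chi-derived replicate 3 (0.0885) and when libraries were scaled by size only (0.0505). The distinguishable copy Gm13340 had a log2 fold change of 0.34 that did not pass (edgeR adjusted p 0.122); it held 7856 counts over the 6 libraries, against 797944 for mt-Co1.

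The remaining complex I genes of the mitochondrion did not pass the test. mt-Nd2 had 77.0, 73.8 and 76.6 against 47.8, 67.6 and 61.8 CPM, a log2 fold change of 0.36 with an edgeR adjusted p of 0.128. The groups were separate, but Ly6Chi-derived replicate 1 lay well below the rest. mt-Nd4 and mt-Nd5, proton-pumping subunits, had log2 fold changes of 0.19 and 0.14 (adjusted p 0.164 and 0.370), and their libraries overlapped. mt-Nd6, the subunit read from the other strand of the chromosome, had 30.2, 33.3 and 37.3 against 32.6, 35.3 and 36.3 CPM, a log2 fold change of -0.05 with a SE of 0.15. Strand was ignored in counting, so reads from either strand over mt-Nd6 could enter its count, and the value is not one of that strand alone. mt-Nd4l had 7 to 29 counts per library, and mt-Nd3, with 0 to 10 counts, was not tested. 

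mt-Cytb encodes cytochrome b, the only subunit of complex III made in the mitochondrion. It had 3974, 3592 and 3264 CPM in TpMo-derived and 2792, 3232 and 3217 CPM in Ly6Chi-derived libraries. The ranges nearly met, and the log2 fold change of 0.23 ± 0.08 (SE) had an edgeR adjusted p of 0.0966. It passed under limma-voom (0.0468) and when 3 libraries had to reach 5 CPM (0.0491). The other genes had too few uniquely placed counts for a precise value: the log2 fold change was 0.22 ± 0.70 (SE) for mt-Co2, 0.12 ± 0.38 for mt-Co3, 0.51 ± 0.29 for mt-Atp6 and -0.93 ± 0.94 for mt-Atp8, none of which passed. mt-Rnr2, the large ribosomal RNA of the mitochondrion and not a subunit gene, was also higher, at 1414, 1377 and 1498 against 1169, 1302 and 1163 CPM (log2 fold change 0.24, edgeR adjusted p 0.0300). mt-Rnr1, the small ribosomal RNA, had 23.4, 24.5 and 23.3 against 19.5, 24.5 and 19.2 CPM, which overlap. Its log2 fold change of 0.17 did not pass (edgeR adjusted p 0.627).

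**Figure D2:**
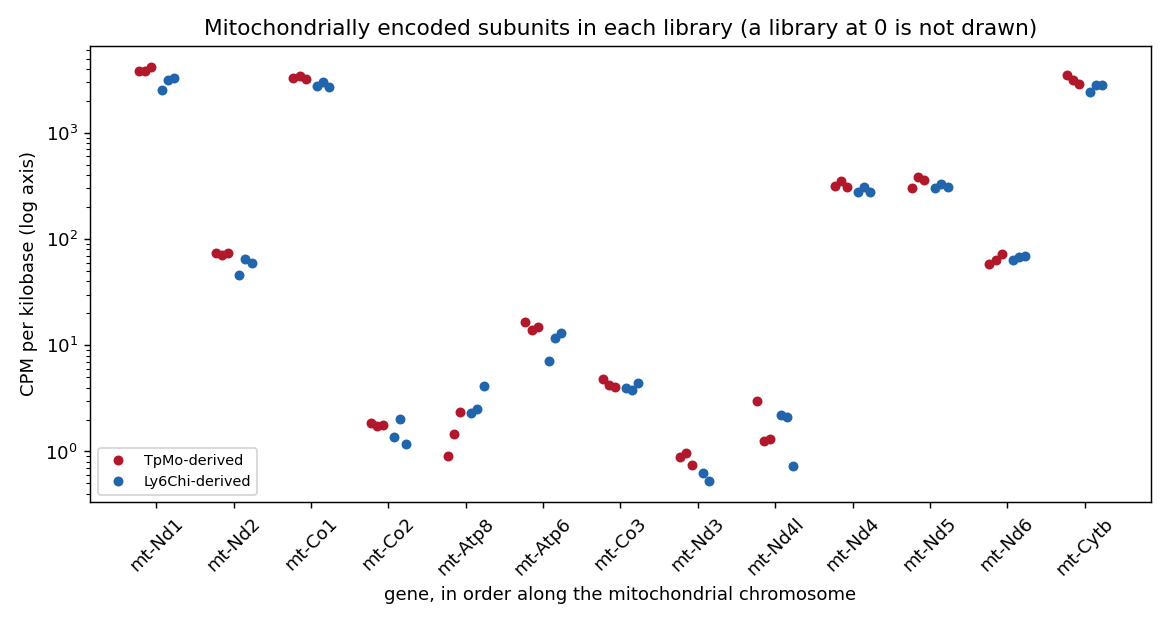
Level of the 13 mitochondrially encoded subunits (y axis, CPM per kilobase of exon, log axis) in order along the chromosome (x axis); each point is a library, red for TpMo-derived and blue for Ly6Chi-derived. mt-Nd1, mt-Co1 and mt-Cytb stand at 2924 to 3477 CPM per kilobase on average, and the 5 genes with nearly wholly shared sequence and mt-Atp8 at 12.9 or less.

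Per kilobase the order of the mean levels was mt-Nd1 (3477 CPM per kilobase), mt-Co1 (3056), mt-Cytb (2924), mt-Nd5 (330), mt-Nd4 (306), mt-Nd6 (65.8) and mt-Nd2 (64.9), followed by the genes with few counts. Library values of the first 3 overlapped, as did those of mt-Nd5 with mt-Nd4 and of mt-Nd6 with mt-Nd2. The divisor was the whole exon length, although reads in shared stretches could be dropped. As 50.6% of the words of mt-Co1 and 62.2% of those of mt-Nd4 were shared, their places in this order are uncertain. mt-Co1, mt-Cytb and mt-Nd1 together held 90.9% of the counts of mitochondrially encoded subunits. A sum over these genes is thus mainly a sum over those 3.

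The nuclear subunits mostly had small fold changes. Of 78 tested, 1 fell (Sdhd), 0 rose and 77 did not pass in edgeR's test, and 6 had an unadjusted p under 0.05, among them Ndufa9, Sdhc, Uqcrfs1 and Atp5a1, against 24.4% of all genes tested. DESeq2 called 0 higher and 3 lower, among them Sdhd and Uqcrfs1. The log2 fold change was below 0 for 50 and above 0 for 28 (6638 of all 13140 genes tested were above 0). It lay within 0.5 of 0 for 75 and had a median of -0.08. Groups were separate for 8 genes, 3 higher (Sdhc, Cox6a2 and Atp5a1) and 5 lower (among them Ndufa1, Ndufa7, Sdhd and Uqcrfs1) in all TpMo-derived libraries, whereas 30.5% of all genes tested were separate in one direction or the other. Counting both genomes, 2 genes rose and 1 fell. Scaling by library size only, which moved the median of all genes from 0.01 to -0.04, turned this into 1 higher (mt-Nd1) and 2 lower, Sdhd among them.

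**Figure D3:**
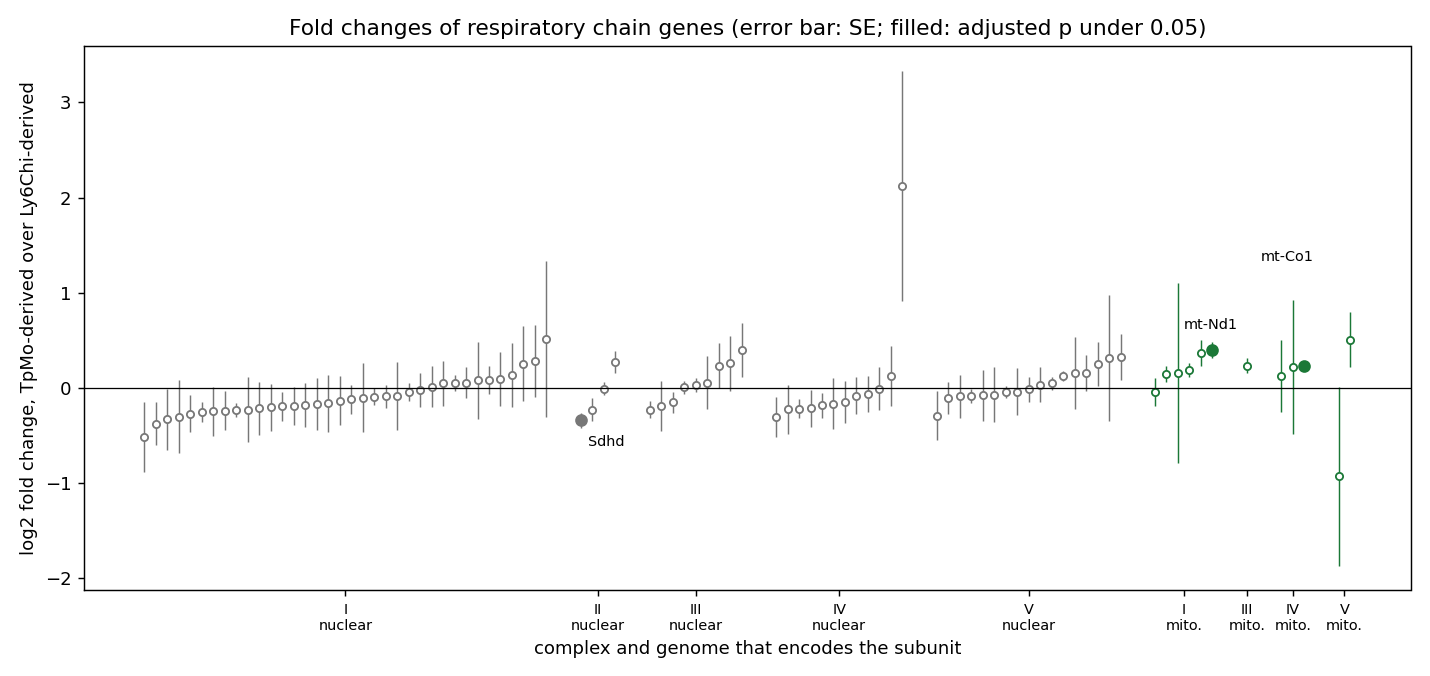
log2 fold change of the 90 tested genes (y axis, TpMo-derived over Ly6Chi-derived; bars are SE), grouped by complex and by the genome that encodes them (x axis; nuclear in grey, mitochondrial in green) and sorted within each group. Filled points, mt-Nd1, mt-Co1 and Sdhd, have an edgeR adjusted p under 0.05; the highest nuclear point is Cox6a2, which rests on 0 to 26 counts per library.

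Genes were assigned to complexes by symbol alone, here and in the ratios below. This places every Nduf gene, Ndufa4 included, in complex I and every Atp5 gene, Atp5s included, in complex V. Complex I, the NADH dehydrogenase, had 36 tested nuclear genes by this rule. Of these, 0 were called either way by edgeR and 2 had an unadjusted p under 0.05. The log2 fold change was below 0 for 25, and the median was -0.13. Ndufs1, the largest iron-sulphur subunit, had 107, 121 and 115 against 128, 120 and 118 CPM, which overlap (log2 fold change -0.10, adjusted p 0.593). Ndufa1, a small accessory subunit, had the largest change among nuclear complex I genes, -0.52 ± 0.37 (SE), from only 2.46 to 3.91 against 4.04 to 4.68 CPM, and did not pass (adjusted p 0.464).

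Complex II, succinate dehydrogenase, held the only nuclear subunit that was called. Sdhd, one of its membrane anchors with Sdhc (ENSMUSG00000000171.5, chr9:50596357-50603812, - strand, GRCm38), had 145, 149 and 136 CPM in TpMo-derived and 176, 193 and 177 CPM in Ly6Chi-derived libraries. The groups did not overlap, and the means of 143 ± 6.73 and 182 ± 9.44 CPM (SD, n = 3 each) gave a log2 fold change of -0.34 ± 0.08 (SE), a level that fell by 21.2%, with an edgeR adjusted p of 0.0195. Leaving out TpMo-derived replicate 3 (adjusted p 0.0713) or Ly6Chi-derived replicate 2 (0.0842) ended the call. The other anchor had a fold change of the opposite sign: Sdhc had 61.8, 74.5 and 61.7 against 53.8, 55.8 and 54.5 CPM, also without overlap, but its log2 fold change of 0.27 ± 0.12 (SE) did not pass (edgeR adjusted p 0.190).

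The catalytic subunits of complex II did not pass. Sdha, which carries the flavin and oxidises succinate, had 443, 441 and 438 against 484, 419 and 431 CPM, a log2 fold change of -0.01 with a SE of 0.07. Sdhb, the iron-sulphur subunit, had 160, 148 and 174 against 154, 211 and 202 CPM (log2 fold change -0.23, adjusted p 0.280), with 1 Ly6Chi-derived library among the TpMo-derived ones. The summed level of all 4 was 810 to 813 CPM in TpMo-derived libraries, below the 863 to 879 CPM of the Ly6Chi-derived ones. Per kilobase of exon the order of the mean levels was Sdhd (132 CPM per kilobase), Sdha (107), Sdhb (78.0) and Sdhc (18.6), but per kilobase of the longest coding transcript Sdha (153) and Sdhb (153) were above Sdhd (132).

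**Figure D4:**
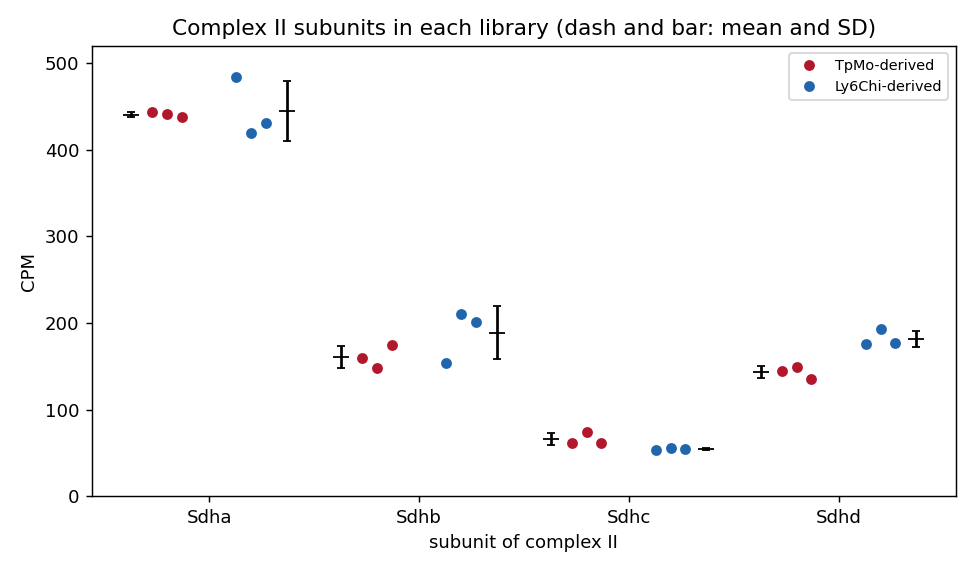
Level of the 4 complex II subunits (y axis, CPM) in each library (points, red for TpMo-derived and blue for Ly6Chi-derived), with the mean and SD of 3 libraries as a dash and bar. Sdhd lies at 136 to 149 CPM in TpMo-derived libraries and at 176 to 193 CPM in the others; Sdha overlaps between the groups.

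The promoters of the called subunit Sdhd and of Sdha, the catalytic subunit of the same complex, are shown because respiratory chain promoters are known for sites of shared activators. The factors NRF1, GABP (an ETS factor) and YY1 are textbook regulators of these genes. The windows run from 250 bases before to 50 bases after the RefSeq start (GRCm38.p6, chr9:50603800-50604099 on the - strand for Sdhd and chr13:74350191-74350490 on the - strand for Sdha). Capitals mark matches, on either strand, to the core NRF1 motif CGCNTGCG or the ETS motif CCGGAAG, which do not overlap each other in these windows.
Sdhd: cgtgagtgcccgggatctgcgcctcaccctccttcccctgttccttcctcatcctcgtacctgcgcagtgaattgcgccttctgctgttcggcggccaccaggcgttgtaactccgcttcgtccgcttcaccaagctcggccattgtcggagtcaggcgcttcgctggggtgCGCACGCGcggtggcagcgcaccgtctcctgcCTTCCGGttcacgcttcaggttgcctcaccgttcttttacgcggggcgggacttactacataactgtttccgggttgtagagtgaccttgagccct
Sdha: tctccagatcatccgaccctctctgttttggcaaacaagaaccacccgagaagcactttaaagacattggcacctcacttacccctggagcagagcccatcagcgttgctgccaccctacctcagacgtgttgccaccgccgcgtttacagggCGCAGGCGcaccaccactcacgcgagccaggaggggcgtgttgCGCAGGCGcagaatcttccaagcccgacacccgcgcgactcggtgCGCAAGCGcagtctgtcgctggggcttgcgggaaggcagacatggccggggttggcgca

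Sdhd had 1 NRF1 and 1 ETS match and Sdha had 3 NRF1 matches. The window of Sdhb, which is not printed, had 0 NRF1 matches and 1 ETS match. Over the 73 windows found for 68 of the nuclear genes, the core NRF1 motif was present in 38.4%, against 8.21% of all 32851 windows of the same length, and the same core with a G before and a C after it in 24.7% against 4.60%. The ETS motif was present in 21.9% against 8.86%, and the YY1 motif AAGATGGC in 13.7% against 2.75%. These are matches of letters, not measured binding. The windows compared were not matched for base composition or for expression of their genes, and the part of either in these percentages was not tested. The Sdhd window also covers the start of the divergent gene Timm8b, an import chaperone, which had a log2 fold change of -0.10 and did not pass.

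Complex III, the cytochrome bc1 complex, had 9 tested nuclear genes; edgeR called 0 and 1 had an unadjusted p under 0.05, with a median log2 fold change of 0.03. Uqcrc1, a core subunit and the highest per kilobase, had 532, 505 and 496 against 477, 529 and 524 CPM, which overlap, and a log2 fold change of 0.00 with a SE of 0.06. Uqcrb, a small subunit, had the largest change, 0.39 ± 0.29 (SE), and did not pass (edgeR adjusted p 0.473).

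Complex IV, cytochrome c oxidase, had 12 tested nuclear genes; 0 were called by edgeR and 0 had an unadjusted p under 0.05, 10 had a log2 fold change below 0, and the median was -0.16. Cox7a2l, which takes part in supercomplex assembly and was the highest per kilobase of exon (85.7 CPM per kilobase, against 56.9 for Cox4i1), had 111, 120 and 121 against 118, 143 and 147 CPM (log2 fold change -0.22, adjusted p 0.224). Cox4i1, the ubiquitous form of subunit 4, had 80.9, 78.2 and 88.6 against 77.7, 94.1 and 110 CPM (log2 fold change -0.18, adjusted p 0.459). Both genes overlapped between the groups: for Cox7a2l 1 Ly6Chi-derived library lay among the TpMo-derived ones, and for Cox4i1 1 lay below them all and the other two above. Per kilobase of the longest coding transcript their order turned, with 115 for Cox4i1 and 112 CPM per kilobase for Cox7a2l.

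Several subunits have forms that are used mainly in other tissues, and these were nearly absent. Cox6a2, the heart and muscle form of subunit 6a, had 21, 26 and 12 counts in TpMo-derived and 0, 8 and 6 counts in Ly6Chi-derived libraries. The groups were separate, but the fitted log2 fold change of 2.12 ± 1.21 (SE), which depends on the prior count, did not pass (edgeR adjusted p 0.338). Cox4i2, Cox6b2, Cox7a1 and Ndufa4l2 had 0 to 8 counts per library, and Cox7b2, Cox8b and Cox8c had 0 in all.

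Complex V, ATP synthase, had 17 tested nuclear genes; 0 were called by edgeR and 1 had an unadjusted p under 0.05, with a median log2 fold change of -0.02. Atp5a1, the alpha subunit of the catalytic head, had 672, 716 and 706 against 645, 628 and 646 CPM. The groups were separate by a narrow gap, and the log2 fold change of 0.13 ± 0.05 (SE) did not pass (edgeR adjusted p 0.193). Atp5b, the catalytic beta subunit, had 794, 912 and 887 against 875, 852 and 787 CPM, a log2 fold change of 0.05 with a SE of 0.07. Atp5s, a coupling factor placed here by its symbol, had the largest change, 0.32 ± 0.24 (SE), and did not pass (edgeR adjusted p 0.480).

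Small subunits were measured less precisely than large ones. The 44 tested nuclear genes with a transcript under 1000 bases had a median level of 13.6 CPM per kilobase of transcript and a median SE of 0.26 on the log2 scale. For the 34 longer ones the medians were 45.5 CPM per kilobase and 0.12. The median log2 fold changes of these classes were -0.09 and -0.07.

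Because a ratio taken within a library needs no scaling between libraries, the counts of mitochondrial subunits were divided by those of the nuclear subunits of the same complex. The ratio was higher in TpMo-derived macrophages in complexes I, III and IV. For complex I it was 4.51, 4.59 and 4.68 in TpMo-derived and 3.07, 3.59 and 3.42 in Ly6Chi-derived libraries, a difference of 0.45 on the log2 scale between means. For complex III it was 4.17, 3.88 and 3.55 against 3.05, 3.33 and 3.30, a log2 difference of 0.26. For complex IV it was 16.6, 17.1 and 15.6 against 13.9, 12.8 and 10.7, a log2 difference of 0.41.

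None of these 3 ratios overlapped between the groups, and as sums over chosen genes they carry no test. The ratio within complex I depended on mt-Nd1: without it, the log2 difference was 0.28. In complex IV mt-Co1 held nearly all mitochondrial counts, and without it the log2 difference was 0.31. That value rests on mt-Co2 and mt-Co3, with 26 to 41 and 73 to 124 counts per library, which are too incomplete to read. When every tested gene had the same weight, as a difference of mean log2 CPM, the difference was 0.29 for complex I and 0.22 for complex IV. Of the 3 mitochondrial genes behind the value for complex IV, mt-Co2 and mt-Co3 are 2. For complex V the ratio overlapped, and it rests on 145 to 376 counts of mt-Atp6 and mt-Atp8 per library, which are too incomplete to read. On plain totals both sides differed. Mitochondrial subunits made up 1.31% to 1.37% of all counts in TpMo-derived libraries and 1.08% to 1.22% in the others, and nuclear subunits 0.520% to 0.543% against 0.559% to 0.572%. On TMM-scaled values the nuclear sum overlapped, at 5273 to 5510 against 5439 to 5662 CPM, while the mitochondrial sum stayed separate, at 13479 to 13807 against 10503 to 12035 CPM.

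**Figure D5:**
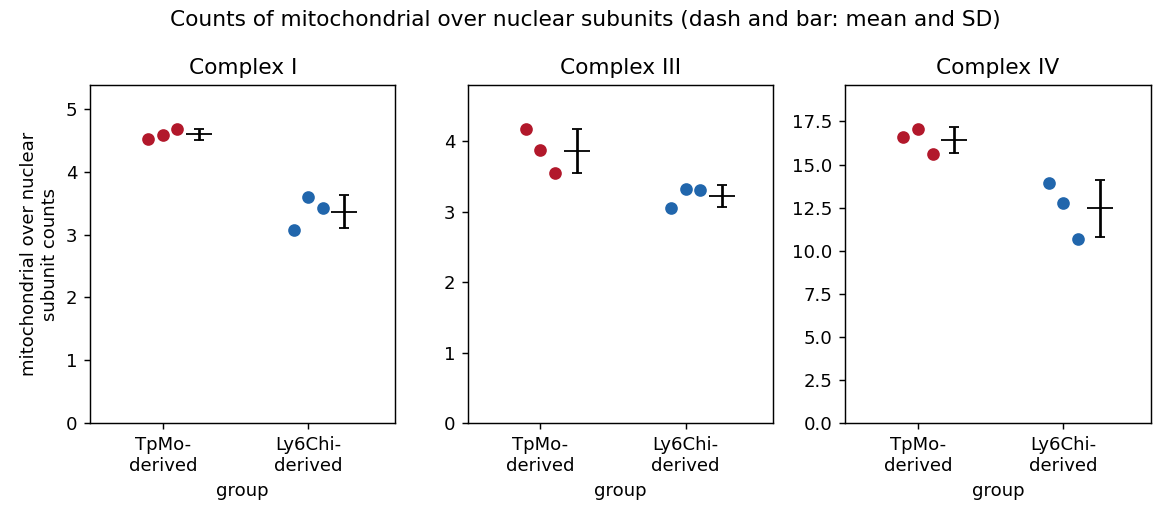
Counts of mitochondrially encoded over nuclear subunits (y axis) of complexes I, III and IV in each library (points, red for TpMo-derived and blue for Ly6Chi-derived), with the mean and SD of 3 libraries as a dash and bar. The points of the groups do not overlap in any of the 3 panels, for example 4.51 to 4.68 against 3.07 to 3.59 in complex I.

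Among genes that build or serve the chain, the same test made few calls. It called 6.54% of all genes tested higher and 5.79% lower, and no list was tested as a whole. The assembly factors of complexes I (17 genes), II (4), III (6), IV (20) and V (4, with its inhibitor) had 0 calls in either direction, and so did 77 genes of the mitochondrial ribosome, whose median log2 fold change was -0.07. The 26 tested genes for replication, transcription and RNA processing of mitochondrial DNA had 0 calls and a median of 0.16. Among them, Tfam, which packages that DNA, had 20.3, 23.2 and 19.6 against 15.2, 19.0 and 17.7 CPM, separate groups, a log2 fold change of 0.28 and an edgeR adjusted p of 0.407. Polrmt, the mitochondrial RNA polymerase, and Tfb2m, its initiation factor, had log2 fold changes of -0.02 and -0.03.

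Of all genes tested 6.54% rose and 5.79% fell. Of 21 tested carriers and other enzymes that pass electrons to ubiquinone, 1 rose and 0 fell. This was Coq3, a methyltransferase of ubiquinone synthesis, with 32.4, 33.7 and 33.0 against 21.8, 21.0 and 18.0 CPM (log2 fold change 0.70 ± 0.16 SE, edgeR adjusted p 0.0150). All TpMo-derived libraries were above all Ly6Chi-derived ones, and the call was lost without Ly6Chi-derived replicate 2 (adjusted p 0.0527) or 3 (0.0628). Cycs, cytochrome c, was also separate, at 76.8, 67.8 and 81.5 against 57.4, 60.8 and 63.4 CPM, but its log2 fold change of 0.32 did not pass in edgeR (adjusted p 0.109) and did in DESeq2 (0.0469). Ndufab1, the acyl carrier protein shared with complex I and outside the naming rule, had a log2 fold change of 0.27 and did not pass (0.547).

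Among 9 tested regulators 1 rose and 0 fell, against 6.54% and 5.79% of all genes tested. Myc, a growth regulator that also acts on mitochondrial genes, had 169, 161 and 187 against 101, 129 and 142 CPM (log2 fold change 0.47, edgeR adjusted p 0.0324), and its call was lost without TpMo-derived replicate 1 or 3 or Ly6Chi-derived replicate 1 or 2 (adjusted p 0.0784 to 0.130). Nrf1 and Gabpa, whose proteins bind the NRF1 and ETS motifs, had log2 fold changes of -0.33 and -0.19 and did not pass (adjusted p 0.233 and 0.367). Of the coactivators of mitochondrial biogenesis, Ppargc1b had 3.71, 1.26 and 1.48 against 3.70, 3.59 and 4.32 CPM (-0.84, 0.370), and Ppargc1a was at 0 in 5 of 6 libraries.

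Of 17 citric acid cycle genes 2 rose and 0 fell, against 6.54% and 5.79% of all genes tested. Suclg2, a subunit of the GTP-forming succinyl-CoA ligase, which makes the succinate used by complex II, had 53.8, 60.0 and 58.8 against 31.3, 36.1 and 31.8 CPM (log2 fold change 0.80 ± 0.13 SE, edgeR adjusted p 0.00288). Idh2, the mitochondrial NADP-dependent isocitrate dehydrogenase, had a log2 fold change of 0.31 at an adjusted p of 0.0490, and leaving out any 1 of the 6 libraries ended the call (0.0614 to 0.148), as did scaling by library size only (0.0879) and testing without a count filter (0.0885).

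Of 19 tested genes for protein import and the outer membrane, 3 rose and 0 fell, against 6.54% and 5.79% of all genes tested. Hspa9, the matrix chaperone that pulls in proteins, had 538, 484 and 513 against 363, 386 and 355 CPM (log2 fold change 0.48 ± 0.07 SE, edgeR adjusted p 0.00119). Hspd1, the matrix folding chaperone, had 362, 338 and 359 against 290, 259 and 243 CPM (0.42 ± 0.08 SE, 0.00660). Both were well separated between the groups and were called with every library left out in turn. Tomm70a, a receptor of the outer membrane, had a log2 fold change of 0.55 (adjusted p 0.0340) that was called after leaving out TpMo-derived replicate 3 but not after any of the other 5 libraries (0.0755 to 0.142), nor with scaling by library size only (0.0553).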

How the data were processed

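RNA was measured in 6 libraries. The deposited values are raw counts of reads on genes, which per the file header come from featureCounts 1.6.3 and GENCODE M22, with its defaults, under which mates are counted separately, strand is ignored, and reads that map to several places or lie on several genes are dropped. Without strand, reads from overlapping antisense genes are mixed. The submitters' processing notes name GRCm38 and STAR (version not given in the sources used here).

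Symbols came from GENCODE M21 (55394 of 55487 identifiers matched) and promoters from RefSeq (GRCm38.p6; all 85 nuclear symbols matched, 68 with a window). edgeR 4.0.16 in R 4.3.3 compared the groups, labelled by cell type, over all 13140 genes past filterByExpr (minimum count 10, minimum total 15) with TMM scaling, the robust quasi-likelihood test, no covariate, and Benjamini-Hochberg adjustment; adjusted p under 0.05 was called. The script was tested on simulated data. Replicates are numbered in accession order. Alternatives were other scalings and filters, DESeq2 1.42.0, limma-voom (limma 3.58.1), a threshold of 0.01, and leaving out each library.

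Named were all mitochondrial genes, called nuclear members, the highest per kilobase and the largest change in each complex, tissue forms, marker subunits, 9 regulators and carriers, and up to 4 called genes per related list; others were named after their values were seen. Members and lists were chosen with earlier results of these data known. The result for 1 complex I gene that this rule takes is not reported here.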

Additional observations from a re-analysis of the deposited data

How the results depend on the processing

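Over all genes, the main counts were 859 higher and 761 lower. DESeq2 called 1176 lower, a threshold of 0.01 left 454 higher and 331 lower, and leaving out a library gave 531 to 750 higher and 445 to 742 lower. For nuclear subunits, the 1 lower call became 2 with scaling by library size only, 3 with DESeq2, 0 at a threshold of 0.01, and 0 to 1 on leaving out a library. For mitochondrial subunits, the 2 higher calls became 1 with scaling by library size only, 0 at a threshold of 0.01, and 1 to 2 on leaving out a library. For complexes I, III, IV and V, the log2 difference of the mitochondrial to nuclear ratio of summed counts was 0.45, 0.26, 0.41 and 0.44. As a difference of mean log2 CPM it was 0.29 for complex I, 0.22 for complex IV and 0.013 for complex V. The value for complex IV rests largely on mt-Co2 and mt-Co3, which had few counts. The summed ratio without mt-Nd1, an alternative chosen after seeing the data, gave 0.28 for complex I. Summed over genes sharing under 50% of their words, the difference turned to -1.03 for complex V, with only mt-Atp8 on the mitochondrial side. That choice leaves no value for complex IV. On leaving out a library, the difference from summed counts ranged from 0.39 to 0.50 for complex I and 0.20 to 0.32 for III. It ranged from 0.30 to 0.49 for IV and 0.17 to 0.63 for V. The log2 ratio of the groups' mean mitochondrial shares of counts, 0.22 over all libraries, then ranged from 0.17 to 0.26. Of 344 alternative values for 25 named subunits, 331 kept their side of the threshold or were not called under either, and 0 reversed a call. All of the 25 but mt-Nd1, mt-Co1 and Sdhd were not called in the main fit, so most of the 331 were not called under either. Where a call was lost or gained, the cause was not tested, except that leaving out a library leaves 5.

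No paired analysis was possible because the labels give no replicate numbers. With 3 libraries a group, genes with few counts, which include 6 of the 13 mitochondrial genes, allow no statement on small changes.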

Other observations

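Some values belong to no comparison above and were chosen after seeing the data. Ndufb2, a small complex I subunit, varied more between libraries than the groups differed: it had 5.89, 0.334 and 3.04 CPM in TpMo-derived and 1.05, 2.45 and 2.98 CPM in Ly6Chi-derived libraries, a 17.6-fold range. The row for Ndufb1-ps, which the annotation does not class as protein-coding, had 2.89, 1.82 and 2.78 against 3.70, 2.89 and 3.64 CPM, and its log2 fold change of -0.45 did not pass (edgeR adjusted p 0.602). A second row named Atp5o had 0 counts in every library, and 100% of its exon overlaps another gene, where reads are dropped. Sequence sharing was also looked up for the nuclear subunits: 35 of 86 shared at least 1 word of 51 bases with another locus, 9 shared over 25%, and Atp5l shared the most, 68.4%. The 4 nuclear subunits Atp5b, Atp5a1, Uqcrc1 and Sdha together held 45.1% of the counts of all nuclear subunits.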
